A study of Mus musculus with 33 samples.

Results

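Olfactory receptor genes, the largest gene family of the mouse, code for the odorant receptors of the nose. Each is a short gene with a single coding exon, and the genes lie in tandem clusters on most chromosomes. Most are silent in other tissues, though some are known from sperm or other cells. In the sensory neurons themselves, H3K9me3, a mark of heterochromatin, covers the clusters and each neuron expresses a single receptor. Uhrf1 is a nuclear protein that reads H3K9me3 and hemimethylated DNA and is needed to maintain DNA methylation. H3K27me3 is the mark of Polycomb repression, and H3K4me3 marks active or poised promoters.

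The loci were the 1106 protein-coding genes on chromosomes 1 to 19 whose name starts with Olfr, out of 21418 protein-coding genes there. Each locus was the gene body with 5 kb on either side. The rule used names and positions only and no measured value. The other 20312 protein-coding genes served for comparison.

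ChIP-seq lists came from E14 mouse embryonic stem cells (mESC), an established line, and from embryoid bodies (EBs) at weeks 1, 2 and 3. EBs are aggregates of differentiating stem cells, here begun in hanging drops and then cultured as spheroids. At each stage wild type (WT) cells were set against cells with a knockout (KO) of Uhrf1, and the KO was a single line. H3K4me3 and H3K27me3 were profiled at all stages, H3K9me3, Oct4, Sox2 and Nanog in mESC only, and Uhrf1 itself in WT mESC. Of 33 samples, 25 had a list of enriched regions and 8 were inputs, which were not used here. There was a single library per group (1 each), which leaves no replicate spread to compare a difference with, and no p-value is given. All intervals are 95% intervals, cover counting error over loci only, and are too narrow where neighbouring loci share a domain.

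The lists differed greatly in extent. The H3K27me3 lists covered 38.4% of the autosomes in WT mESC and 3.40% in KO mESC, 4.07% and 7.27% at week 1, 46.6% and 18.9% at week 2, and 32.0% and 17.0% at week 3, in WT and KO respectively. The H3K9me3 lists covered 39.8% in WT and 43.9% in KO. H3K4me3 lay within 2 kb of the start of 7 of 8 stem cell marker genes in mESC of both genotypes, Esrrb being the exception. The same 7 had it in EBs of weeks 2 and 3 in both genotypes, and 5 in WT and 2 in KO at week 1. These markers thus did not set mESC apart from EBs of weeks 2 and 3. Of 6 olfactory neuron marker genes, 2 had H3K4me3 at the start in WT mESC (Adcy3 and Cnga4) and 1 in KO mESC (Cnga4). It was absent from the start of Omp, Rtp1 and Rtp2 in all 8 lists. Gnal and Adcy3 had it in the 6 EB lists, and Cnga4 at week 2 in WT and at weeks 1, 2 and 3 in KO. The Uhrf1 gene had H3K4me3 at its start in all 8 lists, so the knockout could not be seen in these files.

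The Olfr loci were short, poor in CpG and tightly clustered. Chained over gaps of at most 500 kb, they formed 53 clusters on 17 chromosomes. Of these, 23 clusters held at least 10 genes each and 1004 genes together, and 10 Olfr genes stood alone. The largest cluster, chr2:85171054-90122730 in the mm9 build, held 221 Olfr genes and 4 other genes. The next were chr7:109625287-112517869 with 129, chr9:37518857-39995679 with 94, chr19:11902567-13994534 with 65 and chr10:128426905-129648205 with 58. The chromosome 7 cluster surrounds the beta-globin genes and holds the class I receptors, the family shared with fish; the receptors elsewhere are called class II here.

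Base composition set the Olfr loci apart from other genes. The median GC content was 37.3% at Olfr loci and 45.2% at other genes, and the median CpG density was 4.16 and 12.1 per kb. In the 300 bp from 250 bp before the annotated start to 50 bp after it, the median number of CpGs was 1 at Olfr genes and 13 at other genes, and 86.1% of Olfr windows had at most 2 CpGs against 15.6%. The median annotated Olfr gene was 960.5 bp long and 67.0% of the lengths were multiples of 3, so many of these models hold the coding sequence alone and their annotated start may lie downstream of the promoter.

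The start windows below show this contrast, from the NCBIM37 (mm9) genome, 5′ to 3′ along the gene, with CpGs in capitals. Olfr73, a receptor for eugenol, has the median number of CpGs of the family. Olfr750 and Olfr212 are 2 of the few CpG-rich members and return below among the loci with H3K4me3. The windows are chr2:87875245-87875544, chr14:51691068-51691367 (both minus strand) and chr6:116456284-116456583 (plus strand), in that order.
Olfr73: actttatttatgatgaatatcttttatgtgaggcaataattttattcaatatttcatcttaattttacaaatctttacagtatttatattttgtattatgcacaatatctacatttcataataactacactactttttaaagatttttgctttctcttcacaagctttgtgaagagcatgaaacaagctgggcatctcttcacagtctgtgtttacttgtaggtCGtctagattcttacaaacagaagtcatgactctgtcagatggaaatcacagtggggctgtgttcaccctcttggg
Olfr750: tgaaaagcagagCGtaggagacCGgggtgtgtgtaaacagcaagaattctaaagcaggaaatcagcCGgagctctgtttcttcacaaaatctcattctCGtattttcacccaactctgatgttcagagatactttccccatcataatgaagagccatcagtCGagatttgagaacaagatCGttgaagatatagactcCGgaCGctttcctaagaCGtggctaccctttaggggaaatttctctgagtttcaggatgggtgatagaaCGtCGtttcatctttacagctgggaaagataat
Olfr212: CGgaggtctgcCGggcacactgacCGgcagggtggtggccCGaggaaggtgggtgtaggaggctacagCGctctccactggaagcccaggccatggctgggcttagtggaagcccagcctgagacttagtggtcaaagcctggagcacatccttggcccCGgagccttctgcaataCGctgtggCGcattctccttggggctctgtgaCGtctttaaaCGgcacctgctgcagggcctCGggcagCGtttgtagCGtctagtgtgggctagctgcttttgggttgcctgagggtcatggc
Olfr73 held 1 CpG, Olfr750 held 11 and Olfr212 held 13.

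Motifs were searched on both strands of the same windows. TAATTA, the core of homeodomain sites such as those of Lhx2, was present in 209 Olfr windows (18.9%) and in 4.84% of all 21418 windows. CCCNNGGG, the core of sites bound by the Ebf factors, was present in 32 (2.89%) and in 15.3%. TATAAA was present in 40.6% and 13.5%. These are letter matches in windows of unequal GC content and say nothing of binding.

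H3K9me3 covered most Olfr loci in both genotypes. With a locus called covered when at least 50% of its length lay in domains, 937 of 1106 Olfr loci (84.7%, interval 82.5 to 86.7) were covered in WT mESC, against 25.2% of all genes tested and 21.9% of other genes. The Olfr share was 62.8 percentage points higher than that of other genes (60.5 to 64.9). In KO mESC, 928 Olfr loci (83.9%) were covered, against 39.1% of all genes and 36.7% of other genes, a difference of 47.2 points (44.8 to 49.4). The difference from other genes was smaller against genes more like the Olfr loci. In WT mESC it was 39.6 points (37.0 to 42.0) against other genes of similar GC content, and 29.4 points (26.5 to 32.2) against those that also lacked H3K4me3 at their start, a comparison added after the data were seen.

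**Figure D1:**
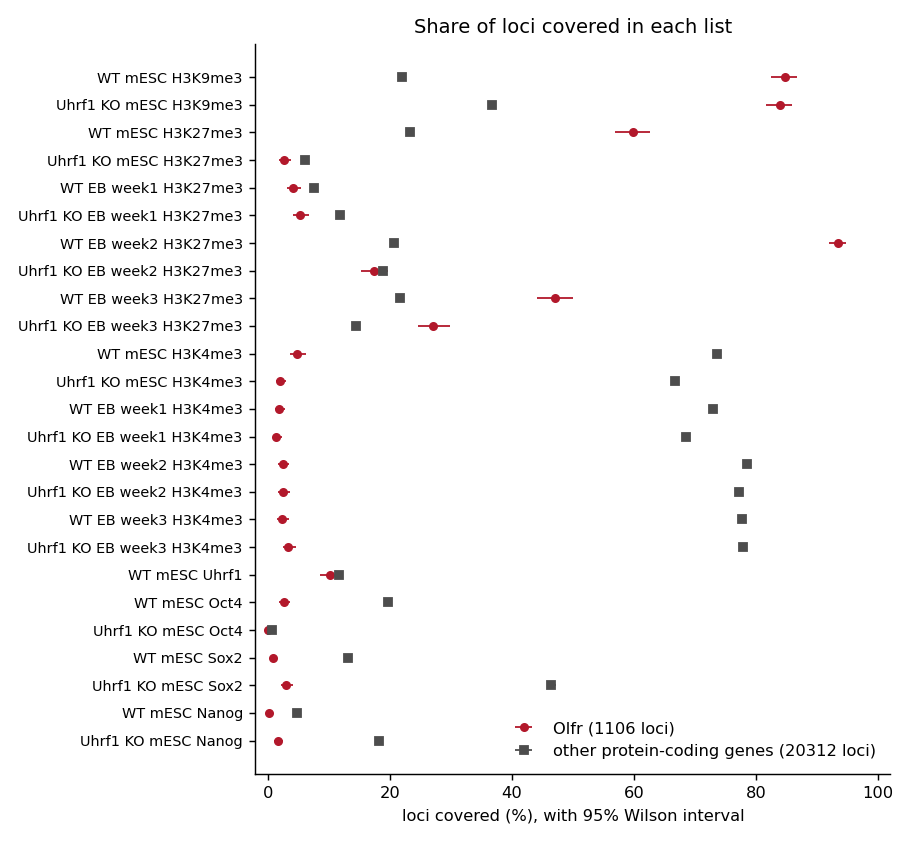
Share of loci covered (horizontal axis, percent) in each of the 25 lists (vertical axis) for the 1106 Olfr loci (red circles) and the 20312 other protein-coding genes (grey squares), with 95% Wilson intervals. Olfr loci lie to the right of other genes for H3K9me3 in both genotypes and for H3K27me3 in WT mESC, WT EBs of weeks 2 and 3 and KO EBs of week 3, and far to the left for every H3K4me3 list.

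Other genes inside the clusters were covered less often than the receptors around them. Of the 129 other genes that lie within Olfr clusters, 33.3% were covered by H3K9me3 in WT, 51.4 points fewer than of the Olfr loci (42.6 to 59.2). Vomeronasal receptor genes (Vmn1r and Vmn2r), the pheromone receptor families, had 70.6% covered, 14.1 points fewer (8.89 to 19.6). Zinc finger genes named Zfp had 38.4% covered. Of the 15 trace amine receptor genes (Taar), the other odorant receptor family, 12 were covered in WT and 12 in KO.

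Few, very long domains accounted for this coverage. The 937 covered loci lay in 115 WT domains and the 928 in 58 KO domains, with a median length at the covered loci of 509 kb in WT and 1244 kb in KO. The domain chr2:85381201-87307200 covered 92 Olfr loci, from Olfr996 to Olfr1126, and no other protein-coding locus. The domain chr2:87413401-88711200 covered 60 Olfr loci, again with no other gene, and chr10:128397601-129987000 covered 58. KO domains covered 100%, 100% and 99.1% of their lengths. In KO, 1 domain, chr2:85132801-89046000, spanned 178 Olfr loci.

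The difference between genotypes at the Olfr loci was within counting error for H3K9me3. The KO share was 0.814 points lower than the WT share (KO minus WT -0.814, interval -2.87 to 1.24). Of the covered loci, 72 were called in WT only, which is 7.68% of the WT-covered Olfr loci against 24.3% of the WT-covered other genes, a difference of -16.6 points (-18.6 to -14.4). Among all genes tested, 5.39% were called in WT only. Another 63 Olfr loci were called in KO only, against 19.3% of all genes. As a share of the loci not covered in WT this was 63 of 169 (37.3%), against 25.7% of such other genes, a difference of 11.5 points (4.58 to 19.1). At other genes the KO share was 14.8 points higher (14.1 to 15.4), starting from 21.9% in WT where the receptors started from 84.7%.

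**Figure D2:**
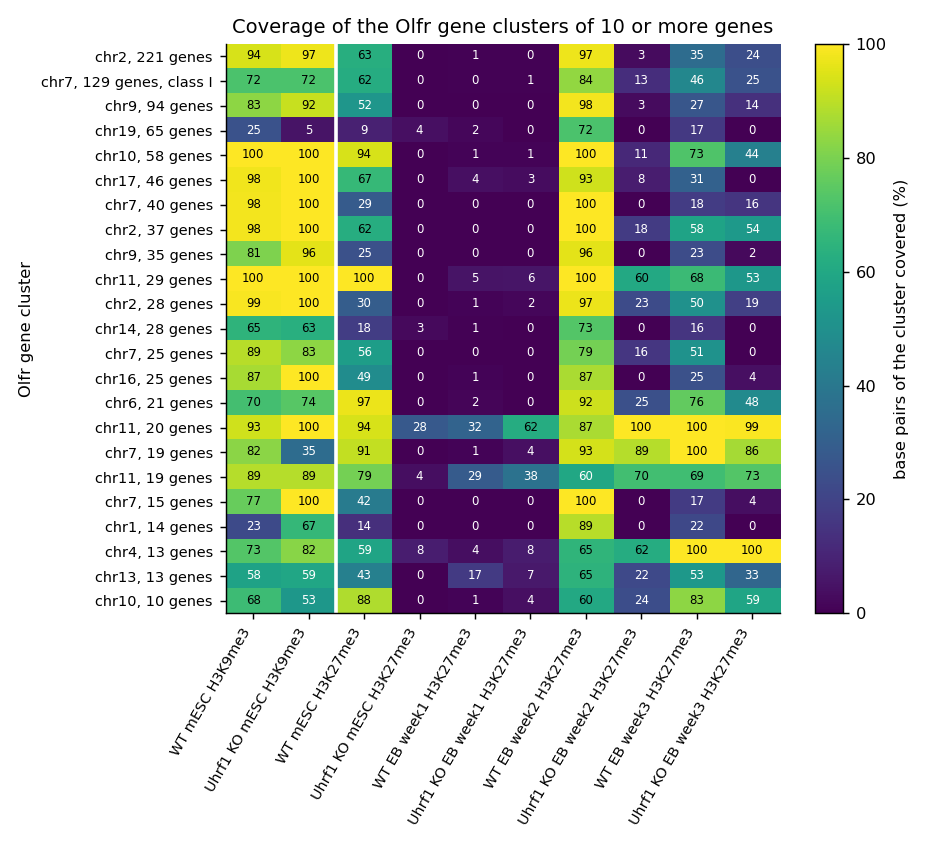
Percentage of base pairs covered (colour and printed number, rounded) in each of the 23 Olfr clusters of 10 or more genes (rows, by number of genes, named by chromosome) for H3K9me3 in mESC (left 2 columns) and H3K27me3 at all stages (right 8 columns). H3K9me3 was at least 50% in 21 of 23 rows in both genotypes, and H3K27me3 at least 50% in 14 rows in WT mESC and 0 in KO mESC, and in 23 rows in WT EB week2 and 5 in KO EB week2.

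Individual clusters departed from this picture. Over the 23 clusters, the share of base pairs in H3K9me3 was higher in KO in 15 and lower in 5, and the differences ran from -47.2 to 44.0 points. The clusters named next were chosen after their values were seen. The cluster chr7:147347838-147891166, with 19 Olfr genes, had 82.5% covered in WT and 35.3% in KO. The cluster chr1:175972064-176379733, with 14, had 22.6% in WT and 66.6% in KO. The chromosome 19 cluster, the fourth largest, was low in both, at 25.3% and 5.14%, and gave 10 of the 72 loci called in WT only.

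H3K27me3 covered the Olfr loci in some WT lists and few of them in KO. In WT mESC, 662 loci (59.9%, interval 56.9 to 62.7) were covered, against 25.2% of all genes and 23.3% of other genes, a difference from other genes of 36.6 points (33.6 to 39.5). At week 1 the count was 46 (4.16%), against 7.44% of all genes. At week 2 it was 1034 (93.5%), against 24.4%, and at week 3 it was 520 (47.0%), against 23.0%. Thus only 32 Olfr loci were covered in none of the 4 WT lists, where 65.9% of other genes were. Genes more like the receptors were closer to them. Of vomeronasal receptor genes, 41.6% were covered in WT mESC, 64.8% at week 2 and 28.1% at week 3. For other genes of similar GC content that lacked H3K4me3 at their start, the shares were 45.9%, 62.6% and 36.3%. That last set was added after the data were seen.

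In KO the corresponding counts were lower at 3 of the 4 stages. They were 30 loci (2.71%) in mESC, against 5.93% of all genes, 59 (5.33%) at week 1, against 11.4%, 192 (17.4%) at week 2, against 18.7%, and 300 (27.1%) at week 3, against 15.2%. In all, 746 Olfr loci (67.5%) were covered in none of the 4 KO lists, where 74.6% of other genes were. The KO minus WT difference was -57.1 points in mESC (-60.1 to -54.2), 1.18 in week 1 EBs (-0.0113 to 2.36), -76.1 in week 2 EBs (-78.9 to -73.3) and -19.9 in week 3 EBs (-22.9 to -16.9). At other genes these differences were -17.2, 4.16, -1.82 and -7.15 points. Week 2 was the stage at which the receptors and other genes were furthest apart in this difference, the interval at other genes being -2.43 to -1.20.

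**Figure D3:**
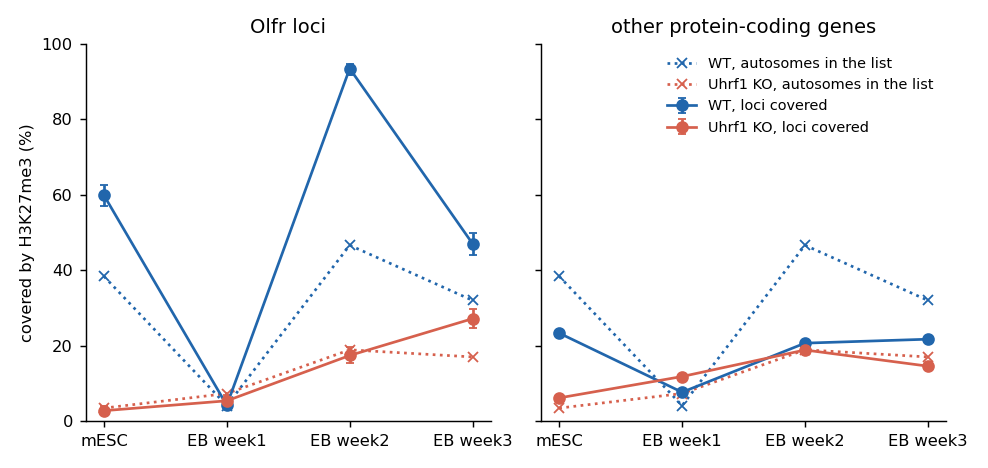
Share of loci covered by H3K27me3 (vertical axis, percent) by stage for Olfr loci (left) and other protein-coding genes (right), in WT (blue) and Uhrf1 KO (red); circles are loci with 95% Wilson intervals, each from 1 library, and crosses on dotted lines the share of the autosomes in the same list. The WT Olfr line peaks at 93.5% at week 2, above the 46.6% of the autosomes in that list, while the KO line stays at or below 27.1%.

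The share lost also differed from that of other genes. Of the WT-covered Olfr loci, 635 of 662 (95.9%) were not covered in KO mESC, against 81.8% of WT-covered other genes, a difference of 14.1 points (12.1 to 15.8). Over all genes tested, 21.0% were covered in WT and not in KO mESC. At week 2 the loss was 868 of 1034 (83.9%) against 53.4%, a difference of 30.5 points (27.7 to 33.1), with 14.5% of all genes called in WT only. At week 3 it was 277 of 520 (53.3%) against 47.3%, a difference of 5.98 points (1.44 to 10.5), with 11.0% of all genes. These losses were not particular to the Olfr loci. Vomeronasal receptor genes lost the mark at 136 of 136 in mESC, 173 of 212 (81.6%) at week 2 and 55 of 92 (59.8%) at week 3. At week 1 only 46 Olfr loci were covered in WT, 16 of which were not covered in KO (1.49% of all genes), and 29 were covered in KO only (5.50% of all genes). KO-only coverage was found at 3 Olfr loci in mESC, against 1.78% of all genes, at 26 in week 2 EBs, against 8.85%, and at 57 in week 3 EBs, against 3.21%. Of the loci not covered in WT, the receptors were covered in KO more often than other genes at these later stages. At week 2 it was 26 of 72 (36.1%) against 11.6%, a difference of 24.5 points (14.4 to 36.1). At week 3 it was 57 of 586 (9.73%) against 3.96%, a difference of 5.77 points (3.601 to 8.45). At week 1 it was 2.74% against 6.12%, and in mESC 0.676% against 2.43%, both lower at the receptors.

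These differences changed when lists of equal covered length were compared. When the longer list of each pair was cut to the covered length of the shorter by keeping its domains of highest mean count, the mESC difference was -0.181 points, with 2.89% of Olfr loci covered in WT and 2.71% in KO. At week 2 it was -28.5 points, with 45.8% covered in WT and 17.4% in KO, while at other genes KO was then 10.7 points higher. At week 3 it was 4.97 points, KO being higher, and at week 1 it was -1.81 points. This cut drops domains of low mean count first, and receptor domains ranked low by that measure in the WT mESC and WT week 3 lists, as given below. It therefore removes receptor domains ahead of others there and cannot separate the extent of a list from this ranking. The base pairs of Olfr loci in H3K27me3, over the share of the autosomes in the same list, gave log2 ratios of 0.65 in WT and -0.20 in KO mESC, 0.99 and -0.08 at week 2, and 0.55 and 0.71 at week 3. At week 3 the receptors were thus over-represented in both lists, and at week 2 in the WT list only.

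Receptor domains of H3K27me3 ranked low within the WT mESC and WT week 3 lists and above the middle in the WT week 2 list. Ranked by the mean read count per bin, the domains at covered Olfr loci had a median percentile of 33.7 in WT mESC, where those at covered other genes had 54.6. The corresponding medians were 32.9 and 58.6 in WT week 3, and 61.4 and 53.6 in WT week 2. For H3K9me3 the receptor domains ranked at 57.9 in WT and 73.1 in KO, against 54.7 and 54.3 at other genes. The KO mESC H3K27me3 list had only 722 domains, with a median mean count of 0.914 per bin, and the 30 covered Olfr loci lay in 9 of them.

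The WT domains that covered the most receptors had no counterpart in KO mESC. The domain chr10:128865601-129650400 covered 38 Olfr loci, chr11:73022401-74203200 covered 29 and chr10:128361601-128793600 covered 19. The KO list covered 0% of the length of each of them. Both chromosome 10 domains overlapped the H3K9me3 domain described above, which KO cells had along 99.1% of its length.

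Receptors fell into a few courses over the WT stages. The largest group, 344 loci (31.1%, against 7.06% of other genes), was covered by H3K27me3 in mESC, week 2 and week 3. Another 293 (26.5%, against 3.68%) were covered at week 2 only, 243 (22.0%, against 3.10%) in mESC and week 2, and 110 (9.95%, against 1.93%) at weeks 2 and 3. All 4 WT lists covered 41 loci (3.71%), against 4.27% of other genes. In KO, the courses after no coverage at any stage were week 3 only, with 162 loci (14.6%, against 2.64% of other genes), and weeks 2 and 3, with 77 (6.96%, against 3.58%).

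Clusters followed the same order with some exceptions. The share of base pairs in H3K27me3 was lower in KO in 23 of 23 clusters in mESC, in 21 at week 2 and in 21 at week 3. At week 1 this share was higher in KO in 8 clusters and lower in 10, with a median difference of 0 points. In the largest cluster, on chromosome 2, it was 62.6% in WT and 0% in KO mESC, 97.3% and 2.74% at week 2, and 35.3% and 24.2% at week 3. The class I cluster had 62.1% and 0%, 83.6% and 13.0%, and 46.3% and 25.1%. In the chromosome 9 cluster the values were 52.5% and 0%, 98.2% and 3.11%, and 26.9% and 13.8%.

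A few small clusters, chosen after their values were seen, had the mark in KO EBs of weeks 2 and 3 much as in WT EBs. The cluster chr11:58268417-58655544, with 20 Olfr genes, had 94.0%, 31.7%, 87.2% and 99.9% covered in WT mESC and weeks 1, 2 and 3, and 28.0%, 61.8%, 99.9% and 99.5% in KO. The cluster chr7:147347838-147891166 had 93.5% and 88.9% at week 2 and 100% and 86.4% at week 3, in WT and KO. The cluster chr4:118338124-118607445, with 13 genes, had 65.3% and 62.1%, then 100% and 100%. The cluster chr11:48792391-49378362, with 19 genes, had 59.6% and 69.8%, then 69.2% and 73.2%. In mESC, however, these clusters had 94.0%, 90.9%, 58.5% and 79.2% in WT and 28.0%, 0%, 8.04% and 3.78% in KO. At week 1 they had 31.7%, 0.949%, 3.76% and 28.8% in WT and 61.8%, 4.23%, 7.73% and 37.5% in KO. The likeness thus held at weeks 2 and 3 and not in mESC, and at week 1 KO was higher in each of them.

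Only 27 loci were covered by H3K27me3 in both WT and KO mESC. Olfr1373, at chr11:51958095-51959030, had the highest KO mean count, 6.43 per bin, at percentile 97.4 of the KO list. Olfr63, on chromosome 17, followed with 1.79. Olfr462, Olfr463 and Olfr464 share the domain chr11:87574501-87777000 with a mean count of 0.682, below the median of the list. The other 22 loci had mean counts from 0 to 0.533 and lay in 6 further domains, so these calls rest on little signal.

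Class I receptors were compared with class II. H3K9me3 covered 79.8% of class I and 85.4% of class II loci in WT, a difference of -5.52 points (-13.5 to 0.939), and 76.0% and 85.0% in KO, a difference of -8.98 points (-17.3 to -2.01). H3K27me3 covered 67.4% and 58.9% in WT mESC, a difference of 8.59 points (-0.430 to 16.7). The 129 class I loci are a single cluster, so these differences compare 1 region with the rest.

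Many receptors had both repressive marks in WT mESC, where H3K9me3 covered 84.7% and H3K27me3 59.9% of the Olfr loci. Marks this common overlap often in any case, and whether they overlapped more than that was not tested. H3K9me3 and H3K27me3 together covered 607 Olfr loci (54.9%), H3K9me3 alone 330, H3K27me3 alone 55 and neither 114. In KO mESC the counts were 22, 906, 8 and 170. Of the 607 loci with both marks in WT, 542 had H3K9me3 alone in KO and 46 had neither. Of other genes, 11.9% had both marks in WT.

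**Figure D4:**
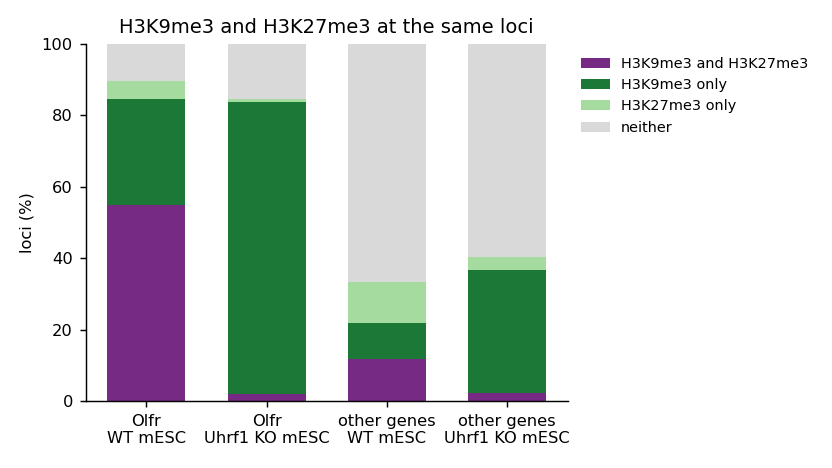
Stacked percentages of loci (vertical axis) with H3K9me3 and H3K27me3, either alone, or neither, for Olfr loci and other protein-coding genes in WT and Uhrf1 KO mESC. The Olfr bar goes from 54.9% with both marks in WT to 1.99% in KO, while H3K9me3 alone goes from 29.8% to 81.9%.

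The marks changed close to the edges of the clusters. Averaged over 46 edges of the 23 clusters, H3K9me3 in WT mESC covered 77.3% of up to 250 kb inside and 41.1% of the 250 kb outside. Short clusters do not reach the inner steps, and the innermost step of 25 kb came from 36 edges. In KO mESC it was 79.7% and 53.0%, so that the step was 36.2 points in WT and 26.7 in KO. H3K27me3 in WT week 2 covered 84.7% inside and 41.7% outside, and in KO week 2 it covered 27.5% and 23.9%. H3K4me3 ran the other way, with 6.30% inside and 20.1% outside in WT mESC.

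**Figure D5:**
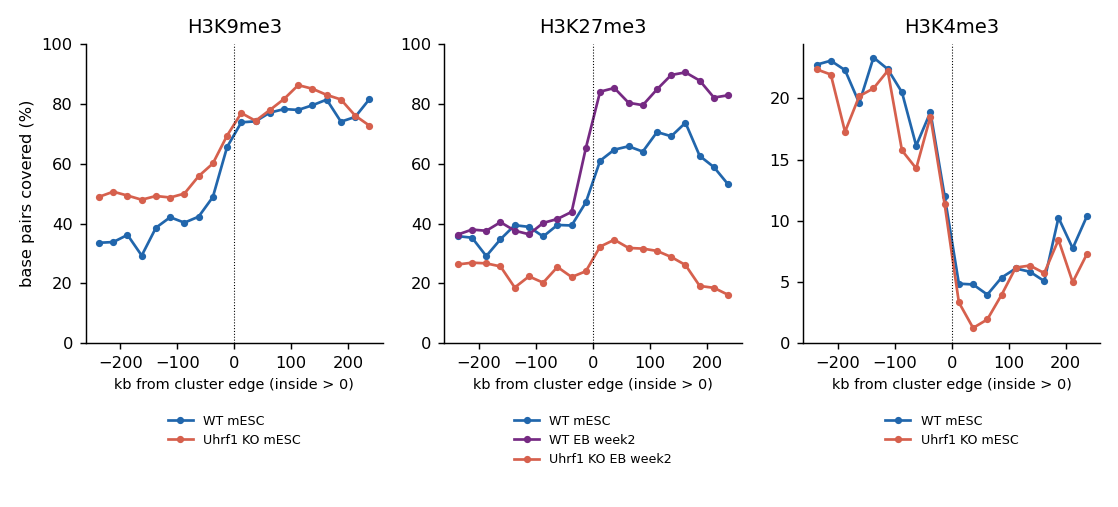
Mean percentage of base pairs covered (vertical axes) in 25 kb steps from 250 kb outside to 250 kb inside the edges of the 23 largest Olfr clusters (horizontal axes, kb, inside positive), for H3K9me3, H3K27me3 and H3K4me3. Outside steps average 46 edges and the innermost step 36. H3K9me3 and WT H3K27me3 step up at the edge and H3K4me3 steps down, while KO week 2 H3K27me3 shows a step of 3.62 points between the 2 sides.

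By the share of loci touched, Uhrf1 itself was not concentrated on the receptors, though the median cluster held a larger share of base pairs in its windows than the autosomes did. Uhrf1 windows of 10 kb touched 113 Olfr loci (10.2%, interval 8.57 to 12.1), against 11.7% of all genes and 11.8% of other genes, a difference of -1.53 points (-3.24 to 0.439). The sign depends on how loci are measured, since Uhrf1 windows held 4.49% of the base pairs at Olfr loci, 1.51 points more than at other genes. That was slightly below the 4.63% of the autosomes in these windows. Over the 23 clusters of 10 or more genes, the share of base pairs in windows had a median of 7.58% and ran from 2.39% to 22.4%. Against other genes of similar GC content, 26.4% of which had a window, the Olfr share was 16.1 points lower (13.9 to 18.2 points). Vomeronasal receptor genes had 43.4%, 33.2 points more than the Olfr loci (27.6 to 38.9 points more).

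Among the receptors, windows were more frequent where H3K9me3 was. They touched 106 of 937 loci with H3K9me3 in WT (11.3%) and 7 of 169 without (4.14%), a difference of 7.17 points (2.61 to 10.2), and at other genes the same difference was 9.77 points (8.54 to 11.0). Class I loci had 3.88% and class II 11.1%, a difference of -7.18 points (-10.2 to -1.97). No difference in the loss of a mark was detectable between receptors with and without a window. H3K9me3 was called in WT only at 6.60% of those with and 7.82% of those without (difference -1.22, -5.15 to 5.39). For H3K27me3 in mESC the shares were 96.2% and 95.9% (difference 0.263, -6.73 to 3.45), both close to complete loss. At other genes the corresponding differences, with minus without a window, were -5.58 points (-8.49 to -2.46) for H3K9me3 and 13.1 points (10.8 to 15.2) for H3K27me3.

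H3K4me3 was rare at the receptors throughout. It touched 53 Olfr loci (4.79%, interval 3.68 to 6.21) in WT mESC, against 70.1% of all genes and 73.7% of other genes, and 22 (1.99%) in KO mESC, against 63.3% of all genes. The difference from other genes in WT mESC was -68.9 points (-70.1 to -67.3). The WT and KO counts in EBs were 20 and 16 at week 1, against 69.2% and 65.1% of all genes, 27 and 28 at week 2, against 74.5% and 73.4%, and 26 and 37 at week 3, against 73.8% and 74.0%. In mESC 33 of the 53 loci were called in WT only, a larger share (62.3%) than at other genes (10.9%), by 51.3 points (37.9 to 63.1). Neither the low share nor the loss was particular to the Olfr loci. Of vomeronasal receptor genes, 18 (5.50%) had H3K4me3 in WT mESC, and 13 of these (72.2%) were called in WT only. The WT mESC domains at Olfr loci also ranked low in their list by mean count, with a median percentile of 35.0 against 56.9 at other genes. Of all genes, 7.80% were called in WT only and 1.03% in KO only in mESC, the latter with 2 Olfr loci. The WT-only and KO-only Olfr counts were 13 and 9 in week 1 EBs, against 5.82% and 1.68% of all genes, 15 and 16 in week 2 EBs, against 3.53% and 2.34%, and 10 and 21 in week 3 EBs, against 2.19% and 2.37%. The KO minus WT difference at Olfr loci was -2.80 points in mESC (-3.84 to -1.77), -0.362 in week 1 EBs (-1.19 to 0.469), 0.0904 in week 2 EBs (-0.896 to 1.08) and 0.995 in week 3 EBs (0.00964 to 1.98).

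Part of this H3K4me3 belonged to neighbours. In WT mESC, 20 of the 53 loci were touched by a domain that also came within 2 kb of the start of another protein-coding gene. Within 2 kb of their own start, 28 Olfr loci had H3K4me3 in WT mESC (2.53%), against 67.5% of other genes, and 1051 had none in any of the 8 lists. Of the 6 Olfr genes with at least 8 CpGs in the start window, 3 had H3K4me3 there in at least 1 list, against 42 of 952 with at most 2 CpGs (4.41%). At other genes these shares were 96.0% and 29.7%.

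Olfr750 carried H3K4me3 within 2 kb of its start in 7 of the 8 lists, the most of any receptor. Its domains had mean counts of 26.0, 33.0 and 28.7 reads per bin in WT mESC, week 1 and week 3, and 19.7, 32.9, 14.3 and 19.02 in KO mESC and weeks 1, 2 and 3, above the median of each list. It is the last gene of a chromosome 14 cluster, at chr14:51689986-51691117, with the nearest other start, that of Rnase12, 14200 bp away. No H3K9me3 and no H3K27me3 domain touched it in any list. Olfr212, the other CpG-rich receptor shown above, had H3K4me3 in 5 lists, the 4 WT lists with 19.6 to 28.2 reads per bin and KO week 3 with 11.8. Its locus was also 100% covered by H3K9me3 in both genotypes. The cluster around it, chr6:116443629-116533049, was 100% covered by H3K27me3 in WT mESC and at weeks 2 and 3 in WT and KO, and 0% in KO mESC. Olfr1373 had H3K4me3 in 6 lists and Olfr1371 and Olfr15 in 4 each. The last 2 were taken from a tie by their summed mean count, other receptors also having H3K4me3 in 4 lists. Olfr1373 thus had H3K4me3 in WT and KO mESC and, of the 27 loci named above, the highest H3K27me3 count in KO mESC.

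Pluripotency factors seldom bound near receptors. In WT mESC, Oct4 summits lay in 29 Olfr loci (2.62%), against 18.8% of all genes and 19.7% of other genes, a difference from other genes of -17.1 points (-18.0 to -15.8). Sox2 summits lay in 9 (against 12.5% of all genes) and Nanog summits in 3 (against 4.61%). The Olfr loci were shorter, with a median of 10960.5 bp against 27174.5 bp at other genes, and a longer locus has more room for a summit. Of other genes with loci of similar length (10.9 to 13.1 kb), 8.66% had an Oct4, 7.15% a Sox2 and 1.71% a Nanog summit in WT mESC. The Olfr shares were 2.62%, 0.814% and 0.271%. In KO mESC the counts were 1 for Oct4 (against 0.700% of all genes), 33 for Sox2 (against 44.2%) and 18 for Nanog (against 17.4%). The direction was that of other genes, whose shares went from 19.7% to 0.734% for Oct4, from 13.1% to 46.5% for Sox2 and from 4.85% to 18.2% for Nanog. Loci with a summit in WT only numbered 28 for Oct4, 2 for Sox2 and 0 for Nanog, against 18.1%, 0.831% and 0.177% of all genes, and loci with one in KO only numbered 0, 26 and 15, against 0.0467%, 32.6% and 12.9%. In all, 52 Olfr loci had a summit in at least 1 of the 6 lists. Of the 29 WT Oct4 summits at receptors, 23 (79.3%) lay in WT H3K9me3 domains, which is no more than the 84.7% of Olfr loci that these domains covered. Among all autosomal Oct4 summits the share was 43.9%.

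The receptors with the most summits were Olfr806 and Olfr926, with 5 each, followed by Olfr90 with 4. Olfr697 and Olfr718-ps1 had 3 and were taken from a tie by their tallest summit, other receptors also having 3. At Olfr806 the summits had 40, 68 and 59 reads for Nanog, Sox2 and Oct4 in WT and 32 and 82 for Nanog and Sox2 in KO, and at Olfr926 they had 22, 19 and 64, and 18 and 26. Those at Olfr806 were the tallest at any Olfr locus for Nanog and Sox2 in WT and Sox2 in KO. The tallest Oct4 summit in WT, with 71 reads, was at Olfr1034, the tallest Nanog summit in KO, with 42, at Olfr90, and the only Oct4 summit in KO, with 12, at Olfr90.

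The 101 bp around WT Oct4 summits at 5 receptors show which held letters known from Oct4 or Sox binding and how alike they were. Sequences are from the NCBIM37 (mm9) genome, plus strand. Capitals mark ATGCAAAT, the octamer bound by Oct4, or CATTGT, a core bound by Sox factors, on either strand. The windows are chr9:38682605-38682705, chr17:37217197-37217297, chr2:87701857-87701957, chr2:89409885-89409985 and chr5:143895873-143895973, in that order.
Olfr926: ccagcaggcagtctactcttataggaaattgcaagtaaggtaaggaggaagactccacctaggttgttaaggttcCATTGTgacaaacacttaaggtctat
Olfr90: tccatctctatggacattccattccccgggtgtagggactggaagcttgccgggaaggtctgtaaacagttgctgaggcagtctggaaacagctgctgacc
Olfr1151: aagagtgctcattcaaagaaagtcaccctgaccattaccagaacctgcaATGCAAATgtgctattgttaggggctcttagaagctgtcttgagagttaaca
Olfr1245: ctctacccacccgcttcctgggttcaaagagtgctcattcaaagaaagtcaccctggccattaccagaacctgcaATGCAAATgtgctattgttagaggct
Olfr718-ps1: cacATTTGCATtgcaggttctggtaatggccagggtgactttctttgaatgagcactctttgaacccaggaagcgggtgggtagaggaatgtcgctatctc
The Olfr926 window held CATTGT once, as the only 1 of the 29 WT Oct4 windows at Olfr loci (3.45%), against 7.99% of the 12185 autosomal WT Oct4 windows, and the Olfr90 window held neither motif. The octamer was present in 4 of the 29 WT Oct4 windows at Olfr loci (13.8%), against 8.81% of all autosomal Oct4 windows. These were the windows at Olfr1151, Olfr1245, Olfr718-ps1 and Olfr150, named for this match after it was seen. Of these, Olfr1245 and Olfr718-ps1 share an unbroken run of 86 bp on opposite strands, which 10 of the 12185 windows hold, and Olfr1151 shares 39 bp with Olfr1245, which 47 hold. Reads from such near-identical sequences were kept with 1 alignment each, so a summit at 1 copy may hold reads of another. Whether this raised any of these summits was not tested.

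Receptors often used in olfaction research followed the family. Of 9 chosen, 8 were found under these names. H3K9me3 covered 6 of the 8 in WT and 6 in KO mESC, H3K27me3 covered 6 in WT mESC, 0 in KO mESC, 6 in WT week 2 and 1 in KO week 2, and H3K4me3 touched none in mESC. Olfr73, Olfr151, an acetophenone receptor, and Olfr16, also known from sperm, were each 100% covered by H3K9me3 and H3K27me3 in WT mESC. In KO mESC their H3K9me3 was 100%, 88.1% and 100% and their H3K27me3 was 0%. Olfr78, a class I receptor of the carotid body, was 100% covered by H3K27me3 at week 2 in both genotypes, the only one of the 8 covered there in KO. Olfr17 was 58.7% covered by H3K9me3 in WT and 0% in KO, and Olfr2, a receptor for octanal in the same cluster, 18.9% and 100%. Olfr544, a class I receptor near the edge of its cluster, was covered by neither repressive mark in any list.

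Of 25 genes that act with the receptors, in odorant signalling, receptor trafficking and receptor choice, H3K4me3 was within 2 kb of the start of 18 in WT and 15 in KO mESC, where 67.5% and 60.9% of genes other than Olfr had it. H3K27me3 covered 11 in WT mESC (Gnal, Cnga4, Ano2, Rtp2, Reep1, Lhx2, Emx2, Ebf1, Ebf2, Ebf3 and Ebf4) and 3 in KO mESC (Lhx2, Emx2 and Ebf1), where 25.2% and 5.93% of all genes were covered. In EBs of weeks 1, 2 and 3 it covered 8, 7 and 10 in WT and 8, 9 and 9 in KO. H3K9me3 covered 3 in WT (Rtp2, Lhx2 and Ebf1) and 4 in KO (Ebf1, Kdm1a, Setdb1 and Cbx5), where 25.2% and 39.1% of all genes were covered. Lhx2 and the Ebf genes code for transcription factors of olfactory neurons, while Setdb1 codes for an H3K9 methyltransferase. Adcy3, the adenylyl cyclase of odorant signalling, Lhx2 and Ebf3 had H3K4me3 at their start in WT and not in KO mESC. Omp, Cngb1 and Rtp1 had neither H3K4me3 nor a covering domain of a repressive mark in any list.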

How the data were processed

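The authors aligned ChIP-seq reads of E14 cells to mm9 with Bowtie2 2.1.0, keeping 1 alignment per read, so that reads of near-identical receptor copies fall at 1 copy. For histone marks the authors called domains against input in bins of 350 to 1800 bp that differed between lists, and each deposited domain has a signal, which is its reads averaged over bins, and a score that adds up over the bins. For Oct4, Sox2 and Nanog the authors' signal counts the reads under each MACS summit. Uhrf1 is given by the authors as coordinates of 10 kb windows with no score. The depth of each library was left aside. Signal and bins differ between lists, so levels were ranked within a list only.

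Genes came from GENCODE vM1 on NCBIM37, the sequence of mm9. No region passed a chromosome end in 530 pairs of list and chromosome. A locus was called covered at 50% of its length for H3K9me3 and H3K27me3, and at any overlap or summit otherwise. Shares have Wilson intervals, differences between gene sets Newcombe intervals and paired differences between genotypes Wald intervals. Other genes of similar GC content had a locus GC between the 10th and 90th percentile of Olfr loci, 34.4% to 42.0%. The scripts (Python 3.11, numpy 2.4.6, pandas 2.3.3, scipy 1.17.1, matplotlib 3.10.9) were tested on simulated data. With 1 library per group no test between conditions was possible.

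The loci and gene lists were chosen with earlier results of these data known. Genes and regions named were much studied receptors, the 5 largest clusters with the class I cluster, up to 5 loci each with the most H3K4me3 lists, the most factor summits or H3K27me3 kept in KO mESC by count, the tallest summit per factor list, the 3 domains of each repressive mark in WT mESC that cover the most receptors, olfactory pathway genes, and the vomeronasal, Taar and Zfp families. Exceptions chosen after their values were seen are marked as such in the text. Some sequences are not reported here.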

Additional observations from a re-analysis of the deposited data

Results flagged for a closer look

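The KO minus WT difference in the share of Olfr loci covered by H3K27me3 had different signs across stages. In stem cells it came to -57.1 points, and in EBs to 1.18 (week 1), -76.1 (week 2) and -19.9 (week 3). The same difference for H3K4me3 was -2.80 points in stem cells, and -0.362, 0.0904 and 0.995 in EBs of weeks 1, 2 and 3. With 1 library per stage and genotype, these differences between stages were not tested. The week 1 interval for H3K27me3 was -0.0113 to 2.36, and its sign changed to -0.904 under the other overlap rule and -1.81 with lists of equal covered length. At equal covered length the stem cell value was -0.181 and the week 3 value 4.97. Both come from a cut that drops domains of low mean count first, where the receptor domains of these WT lists ranked low. The H3K4me3 sign changed in some alternatives at weeks 1 and 2.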

How the results depend on the processing

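Over 15 results and 133 alternatives, 68 values stayed within the counting interval of the reported value, 55 moved beyond it with the same sign and 10 changed sign. The cause was not tested. Values are percentage points.

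For Olfr minus other genes, the other overlap rule (any overlap for H3K9me3 and H3K27me3, 50% for H3K4me3) gave 49.5 for WT H3K9me3, 41.0 for KO H3K9me3, 23.8 for WT H3K27me3 and -26.6 for WT H3K4me3. The share of base pairs gave 57.9 for WT H3K9me3, 32.6 for H3K27me3, -15.9 for H3K4me3 and 1.51 for Uhrf1. Windows of 5 kb either side of the start gave 31.1 for H3K27me3, -65.5 for H3K4me3, 3.56 for Uhrf1 and -6.76 for Oct4. Other genes of similar locus length gave 52.7 for WT H3K9me3, 25.2 for H3K27me3, -48.3 for H3K4me3 and -6.04 for Oct4. Those of similar GC content gave 39.6 and 22.9 for H3K9me3 in WT and KO, 26.4 for H3K27me3, -50.9 for H3K4me3 and -16.1 for Uhrf1. Those without H3K4me3 gave 49.6 for WT H3K9me3, 20.7 for H3K27me3, -11.5 for Uhrf1 and -9.66 for Oct4. Both conditions together, chosen after seeing the data, gave 29.4 and 30.2 for H3K9me3 in WT and KO, 13.96 for H3K27me3, -24.1 for Uhrf1 and -9.61 for Oct4. The higher-scoring part of each list gave 50.5 for KO H3K9me3, -54.3 for H3K4me3 and -10.6 for Oct4. Counting each cluster once gave 38.8 for KO H3K9me3, 43.4 for H3K27me3, -59.6 for H3K4me3, 1.6 for Uhrf1 and -15.4 for Oct4. Without the largest cluster, H3K9me3 gave 59.3 in WT and 43.3 in KO, and gene bodies alone gave -5.78 for Uhrf1 and -13.8 for Oct4.

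For KO minus WT at Olfr loci, the other overlap rule gave -3.07 for H3K9me3, -60.6 and -0.904 for H3K27me3 in mESC and week 1, and -0.995 for H3K4me3 in mESC. Lists of equal covered length gave -0.181, -1.81, -28.5 and 4.97 for H3K27me3 in mESC and weeks 1, 2 and 3, and -1.63 and 0.452 for H3K4me3 in mESC and week 1. The higher-scoring part gave -52.2 and -16.7 for H3K27me3 in mESC and week 3 and -1.08 for H3K4me3 in mESC. Counting each cluster once gave -7.23 for H3K9me3, -48.2 for H3K27me3 at week 2, and -7.38, 2.76 and 2.90 for H3K4me3 in mESC and weeks 1 and 2. Without the largest cluster H3K27me3 at week 2 gave -70.8. For H3K4me3, the share of base pairs gave -1.17 in mESC, gene bodies gave -1.36 in mESC and 0.181 at week 1, and the 5 kb windows gave -0.181 at week 2.

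No paired analysis was possible because each group held 1 library. The extent of the lists, 38.4% of the autosomes in WT and 3.40% in KO mESC for H3K27me3, limits the comparison of WT with KO.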
